A study of Mus musculus with 12 samples.

Results

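The forkhead box (Fox) genes encode transcription factors that share a DNA-binding forkhead domain and are sorted into subfamilies by a letter. Of 40 Fox symbols listed for autosomal protein-coding genes, 39 were held by the GENCODE M1 annotation of mm9 and make up the set described here, out of 21418 autosomal protein-coding genes. Foxl1 was not matched and is not analysed here. The measurement was H3K27me3 ChIP-seq, given as lists of peak positions, and the quantity taken for each gene was the share of its promoter that lay under peaks. The promoter was the transcription start site (TSS), taken as the 5′ end of the gene, with 2500 bp on either side. A promoter was called marked when at least 1 bp of it lay under a peak in both libraries of a group.

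The cells were iMEFs, immortalized mouse embryonic fibroblasts, of a single clone named C2. Per the methods of the study, such clonal cells carry a floxed and a deleted Ezh2 allele, CreERT2 at the ROSA26 locus and a c-Myc retrovirus, so that every group shares them and the groups labelled WT/WT are taken here as cells before the floxed allele is deleted. In experiment 1 there were 2 libraries labelled Ezh2 WT/WT (wild type) and 2 labelled Ezh2 -/- (knockout, Ezh2 removed through 4-hydroxytamoxifen, OHT), made with an Active Motif H3K27me3 antibody and read as 75-bp SOLiD reads. Experiment 2 held 2 wild-type libraries, 2 of the knockout, 1 of the Ezh1 pre-rescue condition and 1 of the Ezh2 pre-rescue condition, in which the named enzyme was stably expressed before endogenous Ezh2 was deleted. The rescue enzymes came from a retrovirus. The libraries were made with antibody clone 7b11 and read as 100-bp Illumina reads, so the experiments were kept apart. Whether libraries of a group came from separate cultures is not in the labels, and the spread between them may be technical.

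H3K27me3 is deposited by Polycomb repressive complex 2, whose catalytic subunit is Ezh2 or its homolog Ezh1, and it accompanies silencing of genes that belong to other lineages. Many Fox genes are known targets of the complex in cells that do not use them, and they direct the formation of liver, gut mesenchyme, lens, thyroid, ovary, thymus or neurons. Other members act in many cell types, such as Foxk1 and Foxo3, or in dividing cells, such as Foxm1.

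The lists differed widely in size. In experiment 1 the wild-type lists covered 141 and 177 Mb and the knockout lists 24.3 and 56.7 Mb. In experiment 2 the values were 14.9 and 11.3 Mb in wild type, 0.0589 and 0.481 Mb in the knockout, 256 Mb in the Ezh1 rescue and 80.6 Mb in the Ezh2 rescue. Knockout lists of 29 and 382 peaks leave little room for a peak at any gene. Since a list holds positions and no read counts, the depth is unknown for each peak, and in bulk chromatin a mark on fewer cells and less of the mark per cell cannot be told apart. In wild type of experiment 1, where 20.7% of all genes were marked, so were 0 of 12 fibroblast genes, 4 of 4 measured blood genes, 4 of 7 epithelial genes and 1 of 4 endothelial genes. The lists measure no transcript, so the Ezh2 genotype of a library rests on its label.

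The 150 bp before the TSS are printed in lower case, 5′ to 3′ on the gene's strand, for 6 genes that stand for the patterns described next, with each CG dinucleotide in capitals because Polycomb targets of vertebrates tend to lie in CpG-rich DNA. They were read from the mm9 genome (NCBIM37) and hold no annotated exon. Foxf2 (chr13:31717535-31717684, plus strand) was marked in wild type and without a peak in the knockout. Foxb2 (chr19:16948131-16948280, minus strand) and Foxd3 (chr4:99322840-99322989, plus strand) were marked and had knockout peaks. Foxc1 (chr13:31898365-31898514, plus strand) and Foxo3 (chr10:41996562-41996711, minus strand) had no promoter peak in any library. Foxi1 (chr11:34108090-34108239, minus strand) had a promoter peak in 1 knockout library alone.
Foxf2: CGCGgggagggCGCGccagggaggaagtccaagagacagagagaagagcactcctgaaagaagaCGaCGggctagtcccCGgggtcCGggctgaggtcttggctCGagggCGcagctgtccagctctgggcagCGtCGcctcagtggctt
Foxb2: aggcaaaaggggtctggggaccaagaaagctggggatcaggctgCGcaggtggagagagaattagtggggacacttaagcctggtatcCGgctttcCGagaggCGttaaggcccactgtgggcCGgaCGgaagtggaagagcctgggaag
Foxd3: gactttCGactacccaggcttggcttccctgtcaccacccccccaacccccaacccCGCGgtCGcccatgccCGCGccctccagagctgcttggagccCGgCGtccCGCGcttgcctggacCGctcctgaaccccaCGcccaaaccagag
Foxc1: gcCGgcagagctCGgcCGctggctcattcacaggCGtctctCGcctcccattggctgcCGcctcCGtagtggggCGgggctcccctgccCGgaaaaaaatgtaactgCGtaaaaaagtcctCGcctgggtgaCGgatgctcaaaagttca
Foxo3: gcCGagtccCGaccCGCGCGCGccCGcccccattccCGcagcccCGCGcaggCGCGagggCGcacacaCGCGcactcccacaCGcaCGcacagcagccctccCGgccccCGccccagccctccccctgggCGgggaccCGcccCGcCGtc
Foxi1: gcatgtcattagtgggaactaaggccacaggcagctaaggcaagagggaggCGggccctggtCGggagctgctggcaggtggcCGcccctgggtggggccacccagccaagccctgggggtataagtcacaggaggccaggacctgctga
The number of CG dinucleotides in these stretches was 12 at Foxf2, 6 at Foxb2, 12 at Foxd3, 12 at Foxc1, 23 at Foxo3 and 3 at Foxi1.

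In wild-type iMEFs of experiment 1, H3K27me3 peaks lay at Fox promoters of many lineages. Of the 39 members, 19 had a peak in both wild-type libraries, against a share of 20.7% over all autosomal protein-coding genes. Foxh1 and Foxj1 had a peak in replicate 1 only (4.83% of all genes had a peak in a single library), and 18 members had none. Among marked members the mean wild-type cover ranged from 15.8% of the promoter at Foxc2 to 81.6% at Foxb1, with a median of 63.5% against 48.2% over the 4426 marked genes of the genome. At least 75% of the promoter was covered at 8 members, a level that 5.08% of all genes reached, and at least 50% at 12 members, against 9.99%.

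**Figure D1:**
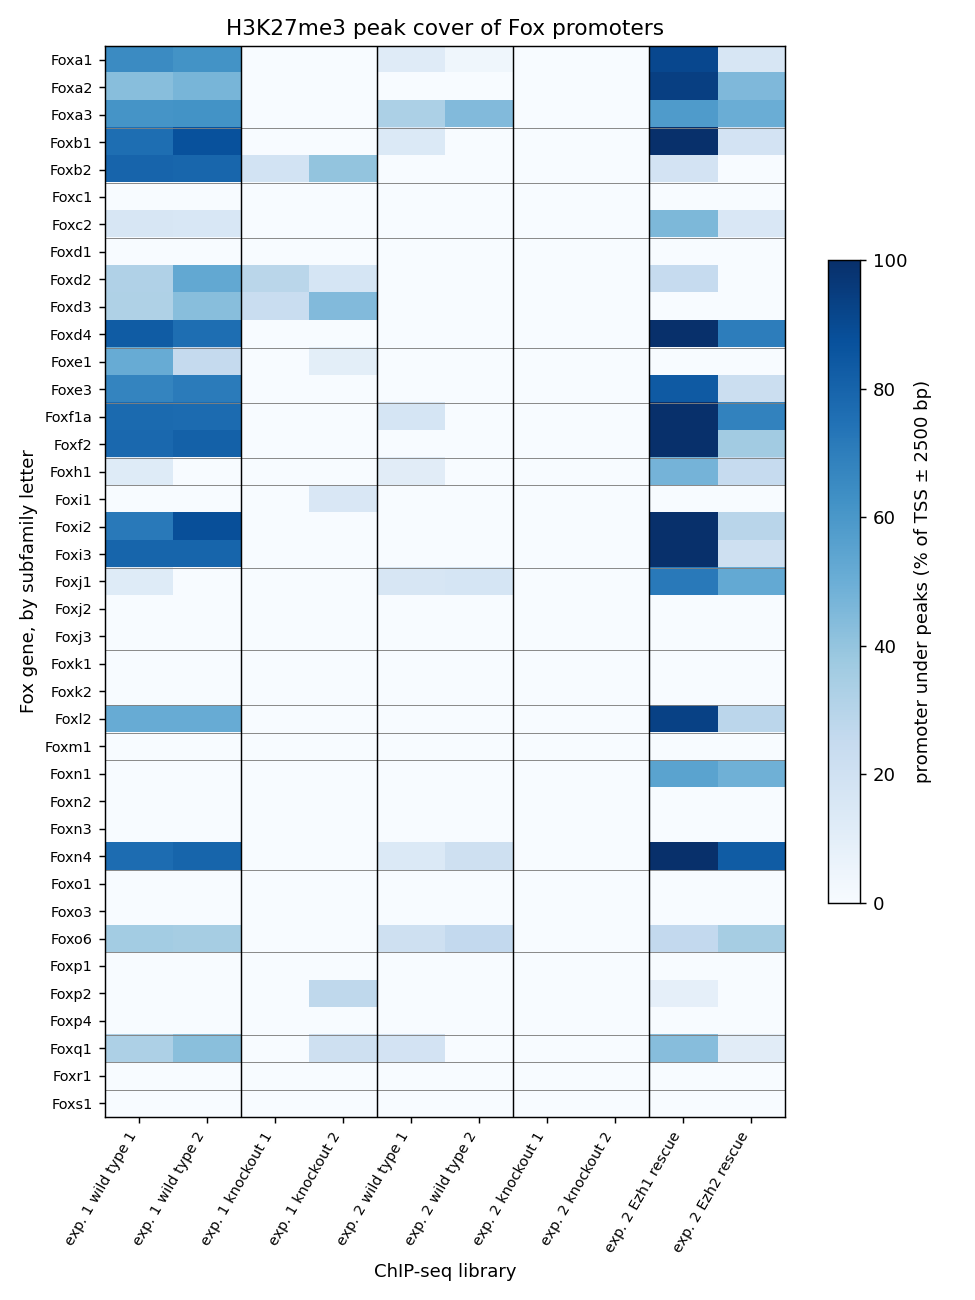
Share of each of 39 Fox promoters (TSS ± 2500 bp, rows, grouped by subfamily letter) under H3K27me3 peaks in each of 10 ChIP-seq libraries (columns), in percent on a color scale from 0 to 100. Subfamilies A, B, E and F are covered throughout in wild type of experiment 1, subfamilies K, M, R and S are empty in all libraries, and both knockout libraries of experiment 2 are empty.

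Whole subfamilies fell on either side. The 3 members of subfamily A, pioneer factors of endoderm and liver, were all marked. Foxa1 was covered to 65.2% and 61.9% in the wild-type libraries and Foxa3 to 61.6% and 61.8%. Foxa2 had 42.8% and 46.6%. Subfamilies B and F had the highest mean cover, 80.6% and 78.6%. Foxb1, a factor of the developing diencephalon, had 76.0% and 87.3%, and Foxb2 had 79.7% and 79.2%. Both F genes, which act in the mesenchyme of gut and lung, were covered to a like extent, with 77.5% and 77.3% at Foxf1a and 78.4% and 81.2% at Foxf2. Subfamily E was marked at the lens gene Foxe3 (67.6% and 70.9%) and at the thyroid gene Foxe1 (51.0% and 25.2%). The replicates of Foxe1 lay further apart than those of any other gene named in this paragraph.

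Other subfamilies were split. In subfamily D, Foxd4 had 83.0% and 76.0% of its promoter covered, Foxd2 31.9% and 52.4%, and Foxd3, a gene of neural crest and pluripotent cells, 32.1% and 42.7%. Foxd1, a gene of stromal cells of the kidney, had none. In subfamily I, Foxi2 (71.5% and 88.0%) and Foxi3 (79.4% and 79.6%), which acts in ectodermal organs, were marked and Foxi1, a gene of the inner ear and of acid-secreting kidney cells, was not. Among the N genes, Foxn4, which specifies retinal and spinal interneurons, had 76.7% and 79.3%, whereas Foxn1, Foxn2 and Foxn3 had none. Of the O genes, the growth factor regulated Foxo1 and Foxo3 had none and the brain gene Foxo6 had 35.7% and 34.9%. Single marked members were Foxl2, the granulosa cell factor of the ovary (51.0% and 51.1%), Foxq1 (32.5% and 42.6%) and Foxc2, a factor of blood and lymphatic vessels. Its paralog Foxc1 had no peak.

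No peak at the promoter in any of the 10 libraries was found at 15 members, or 38.5%, against 58.2% of all genes. They were Foxc1, Foxd1, Foxj2, Foxj3, Foxk1, Foxk2, Foxm1, Foxn2, Foxn3, Foxo1, Foxo3, Foxp1, Foxp4, Foxr1 and Foxs1. Among these are the mitotic factor Foxm1, the AKT-controlled factors Foxo1 and Foxo3 and both K genes.

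Most marked Fox promoters had no peak once Ezh2 was deleted. Of the 19 marked members, 14 had no peak at the promoter in either knockout library, or 73.7%, against 92.3% of all marked genes. These were Foxa1, Foxa2, Foxa3, Foxb1, Foxc2, Foxd4, Foxe3, Foxf1a, Foxf2, Foxi2, Foxi3, Foxl2, Foxn4 and Foxo6. The mean cover of the 39 promoters was 29.1% and 29.6% in the wild-type libraries and 1.82% and 4.46% in the knockout libraries. At Foxf2, cover fell from 79.8% ± 1.98 (SD, n = 2) to 0 in both knockout libraries, and at Foxn4 from 78.0% ± 1.85 (SD, n = 2) to 0. At 18 of the 39 members wild type had more cover than the knockout in each pairing of libraries, against 20.1% of all genes, and at 0 members was the order the opposite, against 3.91%. Only a marked promoter can meet the first order, so this count largely restates the 19 marked members and the 20.7% of all genes. With 2 libraries against 2, the smallest p that an exact permutation test (two-sided) can give is 0.33, which each of these 18 members reached, so no member could pass a threshold of 0.05.

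**Figure D2:**
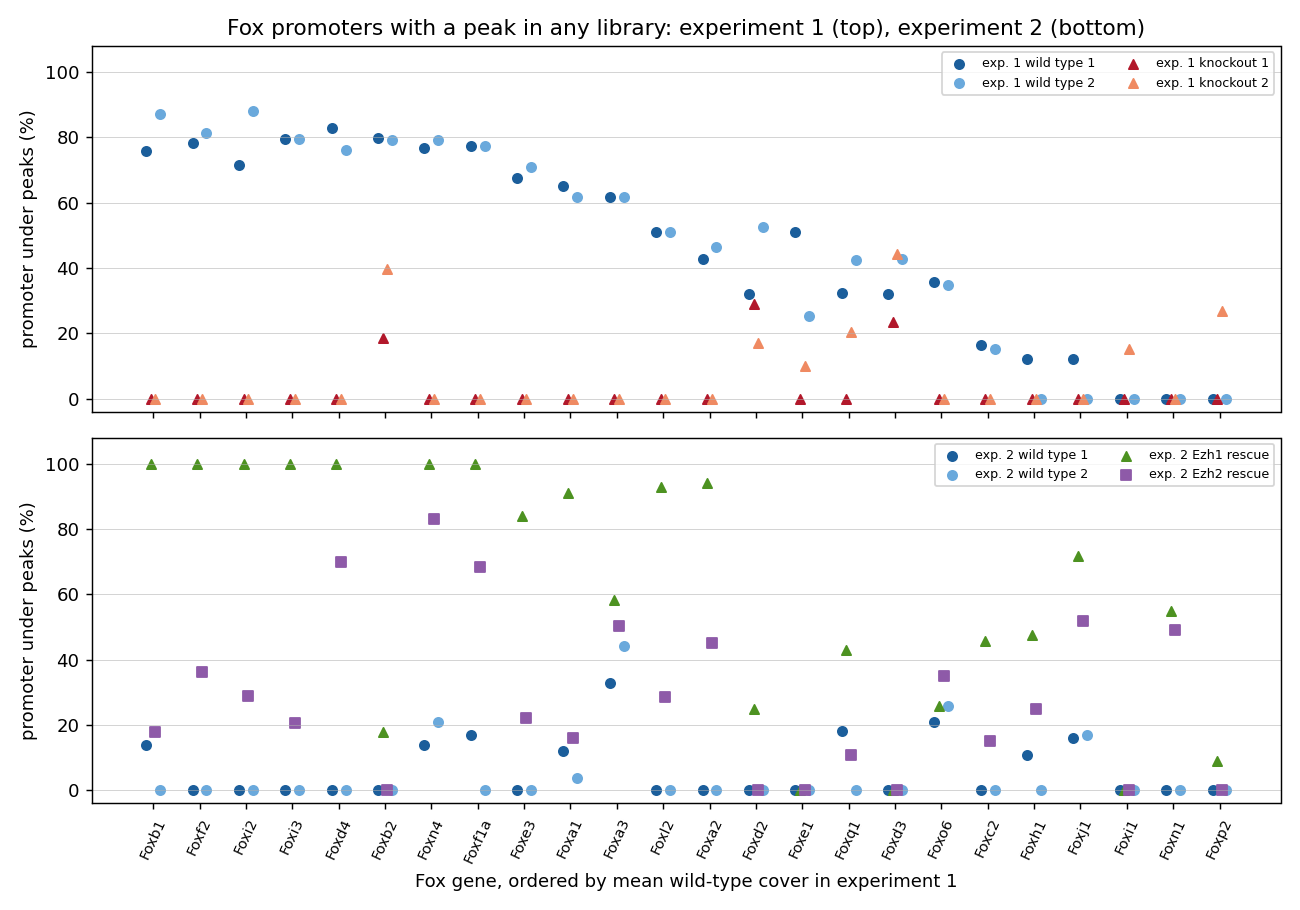
Share of the promoter under H3K27me3 peaks (percent, vertical axis) at the 24 Fox genes with a peak in any library, ordered by mean wild-type cover in experiment 1. Each point is 1 library, and the knockout libraries of experiment 2, all at 0, are not drawn. In experiment 1 (top) the knockout triangles lie at 0 except at Foxb2, Foxd2, Foxd3, Foxe1, Foxq1, Foxi1 and Foxp2, and in experiment 2 (bottom) the Ezh1 rescue reaches 100% at 7 genes.

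Knockout peaks were found at 5 marked members, and 3 of these had them in both libraries. Foxb2 was covered to 18.6% and 39.9% in the knockout libraries, below its 79.7% and 79.2% in wild type. At Foxd2 the knockout values were 28.9% and 17.1%, also below both wild-type values. Foxd3 had 23.4% and 44.3% in the knockout against 32.1% and 42.7% in wild type, so its groups overlapped and it is the marked member that did not separate. Its mean difference of 3.53 percentage points (wild type minus knockout) became -1.77 without wild-type replicate 2 and -6.94 without knockout replicate 1, so its direction rests on single libraries. Over all marked genes, a peak in both knockout libraries was found at 3.41%. A further pair had a peak in knockout replicate 2 only, Foxe1 with 10.1% and Foxq1, a gene of hair and epithelia, with 20.4%, while for 4.34% of all marked genes just 1 of the knockout libraries held a peak.

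From 53.5% to 100% of the knockout-covered bases of these promoters lay on sequence that both wild-type libraries covered. At Foxb2 all knockout-covered bases of the promoter in both libraries lay under peaks shared by the wild-type libraries, with the main peaks at positions -1285 to -358 from the TSS in replicate 1 and -2260 to -457 in replicate 2. The Foxd3 peaks also lay upstream, at -2705 to -1333 in replicate 1 and at -4553 to -286 in replicate 2, and covered 72.9% and 74.0% of the wild-type bases. Of its knockout-covered bases, 100% in replicate 1 and 53.5% in replicate 2 lay on wild-type sequence. At Foxd2 a peak of 2225 bp and one of 2222 bp lay downstream, starting 1680 and 1644 bp after the TSS, and 56.9% and 99.5% of its knockout-covered bases lay on wild-type sequence. No knockout peak covered the TSS of a member. Of the 5 genes, 3 lie on chromosome 4 (Foxd2, Foxd3 and Foxe1), which carries 5 of the 19 marked members. This chromosome held 9.33% and 9.54% of the knockout-covered bases against 6.58% and 6.28% in wild type. On it 7.47% of the marked genes had a knockout peak, beside 343 of the 4426 marked genes on all autosomes.

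Outside the marked set, knockout replicate 2 had a peak at Foxi1 (15.2%) and at Foxp2, a factor of brain and lung (27%), where both wild-type libraries had none. Replicate 1 had none at either. These were 2 of 18 members without a wild-type peak, or 11.1%, against 11.9% of all genes without one. Foxc1, unmarked at its promoter, had knockout peaks over 4.64% and 27.3% of its gene body, toward its 3′ end.

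Cover of the marked Fox genes dipped at the TSS itself in wild type of experiment 1. In wild type of experiment 1, the 19 marked members were covered on average to 74.3% and 81.4% between 2500 and 1000 bp upstream, to 31.8% and 29.2% over the first 1000 bp of the gene, and to 63.1% and 67.2% between 1000 and 2500 bp downstream. A peak contained the TSS at 5 of these members in replicate 1 and at 5 in replicate 2, against 27.1% and 32.9% of all marked genes. Over all 4426 marked genes the same stretches held 54.2% and 59.7%, 35.4% and 40.7%, and 51.7% and 56.7%. GC content moved with the dip, at 49.2% in the upstream stretch, 65.6% over the first 1000 bp and 55.2% downstream for the 19 members, and its part in the dip was not tested. In the Ezh1 rescue, read on another platform, cover was 67.5%, 55.3% and 70.9% in these stretches, and a peak contained the TSS at 13 of the 19, against 60.6% of all marked genes in this far longer list. In the Ezh2 rescue cover was 38.6%, 23.4% and 28%, and a peak contained the TSS at 3 of the 19, against 25.4%. Over all marked genes these stretches held 66.9%, 62.8% and 65.5% in the Ezh1 rescue and 29.9%, 27.6% and 30.6% in the Ezh2 rescue. Over the 1000 bp before the TSS, the 19 had 54.2% and 51.5% in experiment 1 wild type, 73.3% with Ezh1 and 21.0% with Ezh2. In wild type of experiment 2 cover was not lower over the first 1000 bp (6.75% and 5.26%) than between 2500 and 1000 bp upstream (5.6% and 0).

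**Figure D3:**
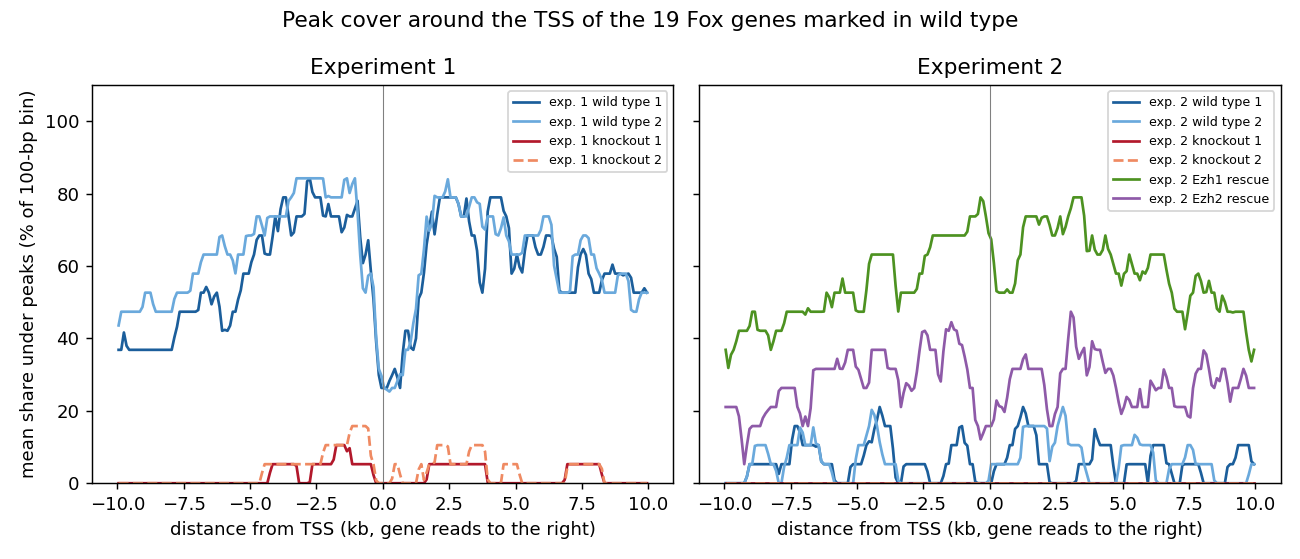
Mean share of 100-bp bins under H3K27me3 peaks (percent, vertical axis) within 10 kb of the TSS (horizontal axis, kb) for the 19 Fox genes marked in wild type of experiment 1, with 1 line per library. Both wild-type lines of experiment 1 drop over the first 1000 bp of the gene, to 31.8% and 29.2% on average. The Ezh1 rescue line also dips there, to 55.3%, from 73.3% over the 1000 bp before the TSS.

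In wild type of experiment 1, peaks at Fox promoters were wider than at the median gene. The widest peak per Fox promoter with a peak had a median width of 5349 bp in wild-type replicate 1 and 10175 bp in replicate 2, against 2448 and 3256 bp over all genes with a promoter peak. In wild type of experiment 2 the medians were 800 and 1050 bp, against 850 bp over all genes in either library. At Foxf1a, which lies on chromosome 8, a peak of 77978 bp ended at position -878 from the TSS in replicate 1, and one of 31129 bp ended at -891 in replicate 2, and a region of 9612 bp, joined from both replicates, began 244 bp downstream of it. Foxf2 on chromosome 13 had a joined region of 22010 bp upstream and one of 5946 bp downstream of its TSS. Knockout peaks at members reached at most 2225 bp in replicate 1 and 4268 bp in replicate 2.

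In the 3 closest groups of Fox genes, all members but Foxc1 were marked, and their cover differed. On chromosome 13, Foxq1, Foxf2 and Foxc1 follow each other, with 67.6 kb between the start sites of Foxq1 and Foxf2 and 181 kb between those of Foxf2 and Foxc1. Across 272 kb from 10 kb before Foxq1 to 10 kb past Foxc1, wild-type peaks of experiment 1 covered 63.7 and 76.7 kb and knockout peaks 1.61 and 4.64 kb. Wild-type peaks lay on both sides of Foxf2, and the Foxc1 promoter had none. On chromosome 8, Foxf1a and Foxc2 lie 31.8 kb apart. There Foxf1a had 77.5% and 77.3% of its promoter covered and Foxc2 16.3% and 15.2%, all of it upstream of the TSS. At Foxc2 the replicates shared only 45 bp of cover. On chromosome 4, Foxd2 and Foxe3 lie 17.2 kb apart. Both were marked, and knockout peaks met the promoter of Foxd2 and not that of Foxe3.

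**Figure D4:**
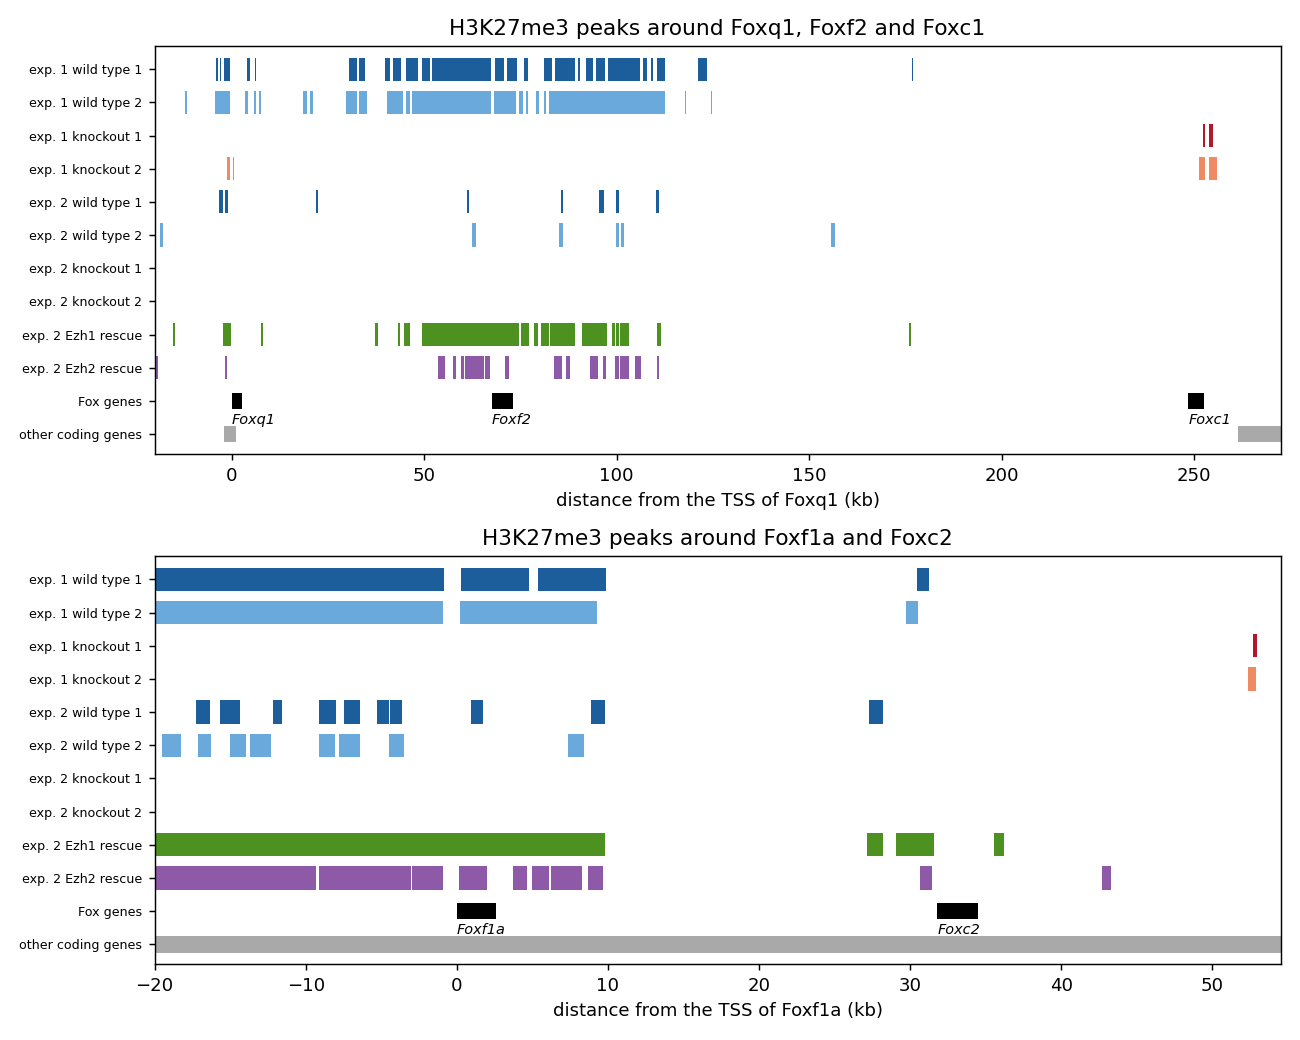
H3K27me3 peaks (bars, without height) in 10 libraries around Foxq1, Foxf2 and Foxc1 (top) and around Foxf1a and Foxc2 (bottom), by distance in kb from the first gene's TSS. Black boxes are the Fox genes and grey boxes other coding genes of the annotation, of which 1 gene model, Gm20388, spans the lower panel. The stretch around Foxf2 is covered in wild type of experiment 1 and in both rescues, and the start of Foxc1 is empty in every row.

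In experiment 2, with far shorter wild-type lists, 5 Fox promoters were marked, against 3.24% of all genes. Foxa3, the liver factor, had 33.0% and 44.3% of its promoter covered. The other marked members were Foxo6 (21.0% and 25.9%), Foxn4 (14.0% and 21.0%), Foxj1, the regulator of motile cilia (16.0% and 17.0%), and Foxa1 (12% and 3.86%). At Foxa1 the peaks of the replicates lay on either side of the TSS and did not meet. Both knockout libraries had no peak at any member, where 0.397% of all genes had one in either. Wild type thus lay above the knockout at these 5 members, against 3.16% of all genes (p = 0.33 by exact permutation, two-sided, again the lowest value that this design allows). With knockout lists of 29 and 382 peaks, this order restates the marking and is no further result. Without wild-type replicate 2 the count was 9 (a peak in either wild-type library was found at 10.4% of all genes), adding Foxb1 (14.0%), Foxf1a (17.0%), Foxh1 and Foxq1 (18.2%), and without replicate 1 it stayed at 5. No other member had a wild-type peak at its promoter. The count was 1 with 1000 bp on either side of the TSS and 2 with peaks of at least 1000 bp.

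Foxj1 and Foxf2 show how far the experiments differed. Foxj1 had 12.1% and 0 in wild type of experiment 1 and was marked in experiment 2. Foxf2, covered to 78.4% and 81.2% in experiment 1, had no wild-type peak at the promoter in experiment 2. Of the 8 members with at least 75% cover in experiment 1, Foxn4 alone was marked in experiment 2, against 24.7% of all genes with such cover.

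Both rescues carried H3K27me3 peaks at most of the Fox promoters marked in wild type, as at most marked promoters of all genes. The Ezh1 rescue had a peak at 21 members and the Ezh2 rescue at 18, against 28.8% and 19.6% of all genes. At 3 members (Foxb2, Foxd2 and Foxp2) the peak was in the Ezh1 rescue alone, against 10.7%, and at 0 in the Ezh2 rescue alone, against 1.41%. Of the 19 members marked in experiment 1, 17 had an Ezh1 rescue peak (91.2% of all marked genes did) and 15 an Ezh2 rescue peak (72% did). There was 1 library of each rescue, so these comparisons have no replicate check and no p-value.

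At most promoters with a rescue peak, of Fox genes as of all genes, cover was higher in the Ezh1 list. That list covered 256 Mb against 80.6 Mb in the Ezh2 rescue. Of the 21 members with a peak in either rescue, 20 had more cover in the Ezh1 rescue, against 90.7% of all such genes (27.4% of all genes with or without a peak), and Foxo6 had less (25.9% against 34.9%). With Ezh1, complete cover was reached at Foxb1, Foxd4, Foxf1a, Foxf2, Foxi2, Foxi3 and Foxn4, and with Ezh2 at no member, against 4.72% and 0.107% of all genes. In the Ezh2 rescue these 7 had 18.0%, 70.0%, 68.3%, 36.3%, 29.0%, 20.5% and 83.0%. The difference was largest at Foxb1, with 82.0 percentage points, followed by Foxi3 with 79.5. Foxa1 had 91.0% and 16.2%, Foxi2 differed by 71.0 percentage points, Foxl2 had 93.0% and 28.5%, and Foxe3 had 83.9% and 22.1%. Peaks were also wider, with a median of 8750 bp for the widest peak per member against 1825 bp in the Ezh2 rescue, where all genes had 3450 and 1350 bp. The widest was a peak of 123050 bp across Foxf1a. The study scaled reads of the Ezh1 rescue and of the knockout by a coefficient, and it cannot be read from the lists if the peaks come from scaled reads, so cover is not a level of the mark.

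Among marked members, those with a knockout peak in experiment 1 less often had a rescue peak at the promoter. Foxd3 and Foxe1 had none there in either rescue. Cover of Foxb2 and Foxd2 was 18.0% and 25.0% with Ezh1 and 0 with Ezh2. Foxq1 had 43.0% with Ezh1 and 11% with Ezh2. Thus 1 of these 5 members had an Ezh2 rescue peak, against 67.3% of all marked genes with a knockout peak. An Ezh1 rescue peak was found at 3, against 87.8%. The Ezh2 count depends on where the promoter window ends. Past that edge, Ezh2 rescue peaks covered 6.56% of the Foxe1 gene body and 0.611% of that of Foxd2. Foxb2 had none within 25 kb. In the family as a whole, a flank of 5000 bp raised the Ezh2 rescue count from 18 to 22. The shares of all genes were not tested at that flank. The 14 marked members without a knockout peak all had a peak in both rescues, where 72.3% of such genes had one in the Ezh2 rescue and 91.5% in the Ezh1 rescue. Antibody and platform changed between these experiments, and their part in the pattern cannot be told apart from that of the enzyme. The short wild-type lists of experiment 2, of the same antibody and platform as the rescues, also had no promoter peak at Foxb2, Foxd2, Foxd3 and Foxe1. Foxq1 had 18.2% and 0 there. Of the 14 others, Foxa2, Foxc2, Foxd4, Foxe3, Foxf2, Foxi2, Foxi3 and Foxl2 likewise had none in these lists.

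The promoter of Foxn1, the thymic epithelial factor, was covered to 55.0% with Ezh1 and 49.0% with Ezh2 and had no peak in the other 8 libraries. Within 25 kb of its TSS, wild-type peaks covered 3851 and 2292 bp in experiment 1 and 0 and 3100 bp in experiment 2. Foxn1 is named here after its values were seen. Of 16 members without a wild-type or knockout peak in either experiment it is the single member with an Ezh1 rescue peak, and 8.08% of all such genes had one. Foxh1, a Smad partner in Nodal signaling, had 47.5% and 25.0% in the rescues and a peak in replicate 1 of either wild-type group (12.2% and 11%). Foxp2 had 8.98% with Ezh1 and none with Ezh2, and Foxi1 had none with either. Foxa3 had 58.3% with Ezh1 and 50.3% with Ezh2, and Foxj1 had 71.7% and 52.0%.

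CpG content overlapped between marked and unmarked Fox promoters. Within 500 bp of the TSS, the ratio of observed to expected CpG had a median of 0.78 in the 19 marked members (range 0.43 to 0.99) and 0.82 in the 18 without a wild-type peak (range 0.18 to 1.06). Over all genes the medians were 0.49 and 0.59. At a ratio of 0.6 or more, 15 of 28 members were marked, or 53.6%, against 17.5% of all such genes. Below it, 4 of 11 members were marked, or 36.4%, against 23.4%. Foxo1, at 1.06 the richest of the family, had no promoter peak in any library, and Foxd4, with 0.43, was covered to 79.5% ± 4.89 (SD, n = 2). CpG-poor members without a mark included Foxn1 (0.18), Foxi1 (0.29) and Foxs1 (0.39). At Foxp1, Foxk2 and Foxn3 the 5′ end of the gene model had a ratio of 0.23 to 0.25.

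**Figure D5:**
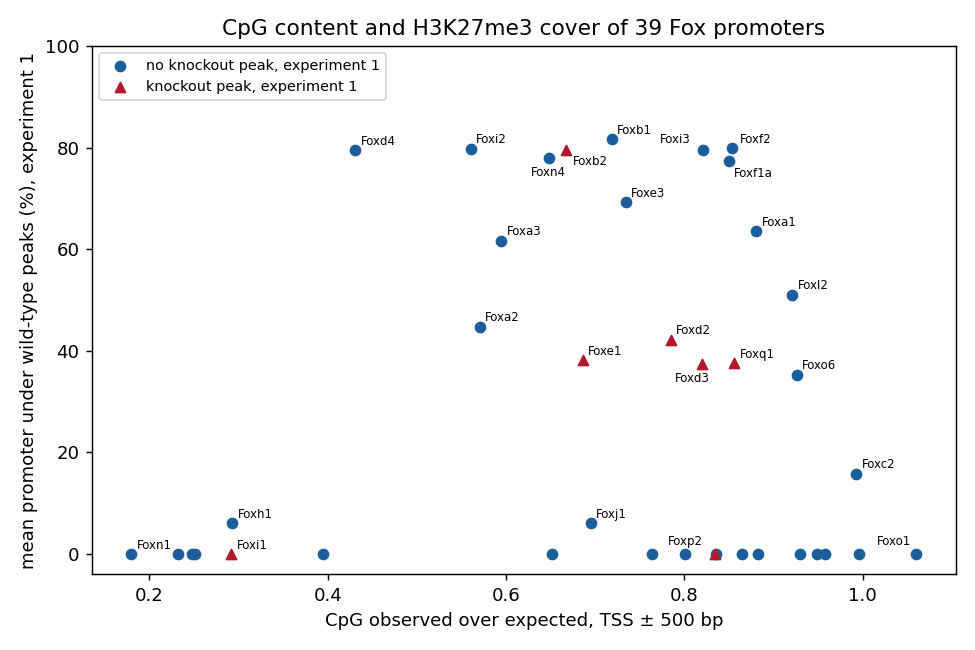
Observed over expected CpG within 500 bp of the TSS (horizontal axis) and mean promoter cover in wild type of experiment 1 (percent, vertical axis) for 39 Fox genes. Red triangles have a knockout peak in experiment 1. Unmarked genes at 0 span ratios from 0.18 (Foxn1) to 1.06 (Foxo1).

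Several members have more than 1 annotated start site, and at Foxp2 these differed. At start sites 283298 to 284214 bp downstream of the gene's 5′ end, wild-type cover of experiment 1 reached 14.0% and 39.8%, knockout cover 36.7% and 13.7%, and Ezh1 rescue cover 84.2%, without a peak in the Ezh2 rescue. At each annotated coding start site of Foxj3, Foxk1, Foxk2, Foxm1, Foxn2, Foxn3, Foxo3, Foxp1 and Foxp4, the wild-type libraries had no peak. Counting any coding start site, 20 members were marked in experiment 1.

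Genes that act with Fox factors were counted from lists and carry no test, and the share of all genes marked in wild type of experiment 1 was 20.7%. Of 4 measured Foxj1 targets, 3 were marked (Dnaic1, Rfx2 and Tekt1). Of 14 Foxo targets, 4 were marked, namely the cell cycle inhibitor Cdkn1a, the muscle ubiquitin ligase Trim63 and the gluconeogenic genes Pck1 and G6pc. None of 9 Foxo regulators, such as Akt1 and Sirt1, and none of 8 Foxm1 targets was marked. Knockout peaks lay at 4 of the 8 Foxm1 targets, where 11% of all genes had one in either library. In the knockout libraries Ccnb1 had 15.9% and 3.14% of its promoter covered and Birc5 3.96% and 5.08%. Plk1 (11.9%) and Cenpa (4.24%) had a peak in replicate 1 only.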

How the data were processed

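Peak lists of H3K27me3 ChIP-seq from 10 libraries entered the analysis. The 2 input samples were not used here. Conditions and replicate numbers came from the labels. The authors aligned reads to mm9, removed duplicates, down-sampled to a common number, applied a coefficient to knockout and Ezh1 rescue libraries and called peaks per sample against input. Tools in the submitters' processing notes are MACS2 2.0.10 for peaks, HOMER 3.17, SAMtools, and the aligners Bowtie2 2.1.0 and Bowtie 0.12.8. The deposited lists give peak starts and ends in bp, with no count or score, and those of experiment 2 lie on a 50-bp grid. Exact duplicates were merged and mitochondrial peaks left out. No peak ended beyond a chromosome of the mm9 reference.

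Bases under peaks were counted in 5001-bp windows around the gene's 5′ end for all 21418 autosomal protein-coding genes, and Fox genes were read from that table. Interval code was tested on simulated data, with 0 mismatches in 2000 windows. Groups were compared by an exact permutation test, two-sided, per gene. The members, lists and rules were chosen with earlier results of these data known. The list of Foxa targets is not reported here. Values in every library are given for the 12 members most covered in wild type, for members with a knockout peak, for those marked in experiment 2 and for those differing by 50 percentage points or more between rescues. Alternatives were windows of 1000 and 5000 bp, any coding start site, 500 bp of cover, merging or dropping peaks, joined replicate peaks, leaving out libraries and pairing by number. Python 3.11.15, NumPy 2.4.6 and matplotlib 3.10.9 were used.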

Additional observations from a re-analysis of the deposited data

How the results depend on the processing

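In experiment 1 the counts of marked members, of marked members without a knockout peak and of members with wild type above knockout stayed within 1.5 times the reported value under each alternative run, and leaving out single libraries gave 19 to 21, 14 to 16 and 18 to 20. The mean difference in cover over the 39 promoters, 26.2 percentage points, was 18.5 with 1000 bp and 29.5 with 5000 bp on either side of the TSS, and 24.9 to 27.5 without single libraries. In experiment 2 the count of marked members and that of members with wild type above knockout, both 5, were both 1 with 1000 bp on either side, both 2 with peaks of at least 1000 bp only, and 5 to 9 without single libraries. The mean difference there, 3.44 percentage points, was 1.88 with 1000 bp on either side, 1.86 with the wider peaks and 2.87 to 4.01 without single libraries. The causes were not tested. Foxd3 changed sign, to -17.1 percentage points with 1000 bp on either side, to -1.77 without wild-type replicate 2 and to -6.94 without knockout replicate 1. Of the other differences of single genes under an alternative, 238 kept within the spread between replicates and 56 moved beyond it.

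Same-numbered libraries did not deviate together (Pearson r of deviations over genes 0.0023 in experiment 1 and -0.012 in experiment 2), so the numbers were not taken as pairs. With the replicate block, that is same-numbered libraries as pairs, the counts stayed at 18 and 5 and the mean differences at 26.2 and 3.44 percentage points, and the smallest sign-flip p is 0.5. Depth behind a peak is unknown, and 2 libraries a group, or 1 per rescue, limit every comparison.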

Other observations

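Foxr1, without a promoter peak in any library, had 30.6% of its gene body covered in wild-type replicate 1 of experiment 1, 0 in replicate 2 and 34.6% in the Ezh1 rescue. The stretch of 54.5 kb around Foxf1a and Foxc2 had no knockout peak in experiment 1, while the 39.8 kb around Foxd2 and Foxe3 had 5.26 and 4.23 kb under knockout peaks. Chromosome 5, which carries Foxn4 and Foxk1, held 21.2% and 21.7% of the knockout-covered bases of experiment 1, and neither gene had a knockout peak at its promoter. These values were picked after the data were seen and carry no test.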
